A study of Homo sapiens with 6 samples.

Results

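The FOS and JUN families supply the core subunits of AP-1, a transcription factor that binds DNA as a dimer. All 7 genes of the families were taken from the deposited table by symbol, namely FOS, FOSB, FOSL1, FOSL2, JUN, JUNB and JUND, out of 60591 genes in all. They were measured by RNA sequencing in KYSE150, an established human line from an oesophageal squamous cell carcinoma. Cells were starved of serum overnight. The TPA group (3 libraries) then received TPA at 10 ng/ml for 24 h, and the control group (3 libraries) is labelled DMSO, the solvent, with no dose or time of its own. TPA is a phorbol ester that activates protein kinase C. The comparison asked how transcript levels differ between TPA and DMSO. No label ties a library to its own culture, so each p-value reflects only how these libraries vary, which may be technical variation.

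JUN proteins can pair with each other or with FOS proteins, while FOS proteins do not pair with themselves and need another zipper protein, most often a JUN protein. Dimers bind the TPA response element, a short palindrome named after this compound, and the related cyclic AMP response element. FOS and FOSB are known as rapidly and briefly induced genes, FOSL1 (FRA-1) and FOSL2 (FRA-2) as FOS relatives without the strong activation domain of FOS, and JUNB and JUND as JUN relatives that activate many AP-1 sites less strongly than JUN. FOSL1 is known for its high expression in squamous and other invasive carcinomas.

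By gene structure the families differ. In the longest GENCODE 29 transcript (GRCh38) each of the 3 JUN genes has 1 exon and each of the 4 FOS genes has 4. FOS lies on chromosome 14 (75278774 to 75282230), FOSB on chromosome 19 (45467995 to 45475179), FOSL1 on chromosome 11 (65892049 to 65900573) and FOSL2 on chromosome 2 (28392448 to 28417312). JUN lies on chromosome 1 (58780788 to 58784327), and JUNB (12791496 to 12793315) and JUND (18279760 to 18281622) lie on chromosome 19. Their transcripts are rich in GC, from 52.6% in FOS to 69.7% in JUND, which exceeds 99.3% of all matched genes.

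RefSeq promoter sequences (GRCh38.p14, 250 bases before to 50 after the start) were found for 6 of the 7 genes, FOSL1 having no entry. They are shown because all 6 hold TGACG, the core of the cyclic AMP response element, on 1 strand or the other, against 24.6% of 35114 promoters. In FOS, FOSB and FOSL2 a copy begins 60 to 66 bases before the start. In JUN that place holds TGACATCA, a variant AP-1 site known from the JUN promoter (2.61% of promoters, both strands). The windows below run from 85 to 46 bases before the start, 5′ to 3′ along the gene, with these matches in capitals. FOS, FOSB and FOSL2 lie on the plus strand and JUN on the minus strand.
FOS chr14:75278743-75278782: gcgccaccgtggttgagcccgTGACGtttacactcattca
FOSB chr19:45467911-45467950: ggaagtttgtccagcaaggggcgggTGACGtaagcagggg
FOSL2 chr2:28392773-28392812: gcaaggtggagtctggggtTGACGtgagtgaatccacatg
JUN chr1:58784093-58784132: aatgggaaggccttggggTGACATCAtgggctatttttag

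The whole promoters of JUNB (plus strand) and JUND (minus strand) follow, since the ratio of these transcripts is a main result below. Capitals mark TGACG or its reverse complement CGTCA. JUND also holds the full palindrome TGACGTCA, found in 1.85% of promoters, 200 bases before the start. It contains both TGACG and CGTCA, which overlap.
JUNB chr19:12791236-12791535: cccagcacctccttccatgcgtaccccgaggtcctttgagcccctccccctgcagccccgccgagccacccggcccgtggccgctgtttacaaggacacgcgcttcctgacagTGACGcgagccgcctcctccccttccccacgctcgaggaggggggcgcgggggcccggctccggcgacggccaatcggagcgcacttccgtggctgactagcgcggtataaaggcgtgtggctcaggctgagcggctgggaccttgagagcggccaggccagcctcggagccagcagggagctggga
JUND chr19:18281573-18281872: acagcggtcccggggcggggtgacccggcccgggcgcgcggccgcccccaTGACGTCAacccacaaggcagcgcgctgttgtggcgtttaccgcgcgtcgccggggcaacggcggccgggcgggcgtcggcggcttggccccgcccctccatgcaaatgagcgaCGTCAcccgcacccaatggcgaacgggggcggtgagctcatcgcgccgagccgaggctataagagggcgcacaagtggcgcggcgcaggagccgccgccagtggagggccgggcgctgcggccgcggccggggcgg

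The canonical TPA response element, TGANTCA on either strand, is in 7.71% of promoters and was found only in the FOSL2 window, as TGACTCA 4 bases after the start. TATAAA (11.5% of promoters, either strand) is in the windows of FOS, FOSB and JUNB, 30 to 33 bases before the start. These matches are descriptions of the letters in these windows and not of bound sites. At the other end of the transcript, 6 of the 7 genes hold TATTTAT, the core of AU-rich elements that are known to shorten the life of FOS mRNA, in the 3′ untranslated region of their longest transcript. JUNB, whose region is 500 bases long, does not. Over 17029 coding genes 33.1% hold it, with a median region of 1264 bases, and longer regions hold more matches by length alone. FOS has the densest ATTTA content, 6.2 copies per kilobase against a median of 1.53. The element of FOS, of FOSL1 and of JUND is shown in capitals.
FOS: tgtttttaattTATTTATtaagatggatt
FOSL1: agggcagctgcTATTTATtttcctaaaga
JUND: cgattctgcccTATTTATgtttctactcg

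Library totals ran from 27702329 to 33965547 counts, and the 7 genes together took 0.0752% to 0.129% of them. The libraries did not fall apart by treatment alone. Over 21825 genes, log2 CPM of TPA 1 correlated with DMSO 1 at r = 0.974 and with TPA 2 and TPA 3 at 0.927 and 0.936, while DMSO 2 with DMSO 3 (0.993) and TPA 2 with TPA 3 (0.992) were the closest. CPM, the standard depth-normalised count, is here the count relative to the TMM-scaled library size. Values are therefore also given by pair, the TPA and the DMSO library of 1 number. Squamous epithelial markers summed to 1690 to 3440 CPM in DMSO and 1310 to 2610 CPM in TPA over 10 genes. KRT5, a basal keratin gene that carried much of the sum, had 428, 1740 and 1780 CPM in DMSO and 66.7, 490 and 509 CPM in TPA, with both libraries numbered 1 the lowest of their group. The markers did not share a direction: the log2 fold changes were -1.89 for KRT5, -1.21 for TP63 and -1.29 for DSG3 but 3.7 for KRT6A and 0.65 for CDH1, and none of the 9 tested passed in edgeR (5 had unadjusted p below 0.05, and DESeq2 called 1 higher and 1 lower). Their part in the results below was not tested. Of 10 markers of blood, endothelial and fibroblast cells, 7 stayed under 1 CPM in every library, and DCN was at 0 in all 6. The others were COL1A1, CD3E and PECAM1. COL1A1 had 5.1, 10.9 and 12.1 CPM in DMSO and 2.9, 10.4 and 9.33 CPM in TPA. CD3E had means of 2.96 CPM in DMSO and 1.17 CPM in TPA, and PECAM1 of 1.11 and 0.642 CPM. Less RNA of a gene per cell and fewer cells that express it cannot be told apart in such bulk RNA.

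JUNB was the one subunit that passed in the main edgeR fit, just under the threshold (adjusted p = 0.0498). FOSL1 had a larger fitted fold change without passing there. It also had the highest level per kilobase of the longest transcript in every library. FOSL1 had 300, 121 and 117 CPM in DMSO 1, 2 and 3 and 680, 578 and 552 CPM in TPA 1, 2 and 3. DMSO 1 was more than 2-fold above the other DMSO libraries, yet every TPA library lay above every DMSO library. The means were 179 ± 104 and 603 ± 67.7 CPM (SD, n = 3 each). The fitted log2 fold change, 1.75 ± 0.39 (SE), did not pass over all genes (edgeR quasi-likelihood test, adjusted p = 0.0681). With the replicate number as a block it was 1.89 and passed (edgeR, adjusted p = 0.00392). It also passed without DMSO 1 (2.35, edgeR adjusted p = 0.0319), where 0.618% of all genes were called, and without TPA 1 (1.77, edgeR adjusted p = 0.0072), where 52.5% were. It did not pass without DMSO 2, DMSO 3, TPA 2 or TPA 3, with edgeR adjusted p values of 0.354, 0.338, 0.191 and 0.22. Those fits called 0%, 0%, 0.109% and 0.00873% of all genes, and the unadjusted edgeR p of FOSL1 in them was 0.00387 to 0.00973.

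JUNB had 104, 97.1 and 106 CPM in DMSO and 188, 280 and 281 CPM in TPA. The DMSO libraries were close together, TPA 1 was the lowest of the TPA libraries, and the groups did not overlap. Its log2 fold change was 1.29 ± 0.23 (102 ± 4.6 to 250 ± 53.5 CPM; edgeR adjusted p = 0.0498), just under the threshold of 0.05. Leaving out DMSO 1, 2 or 3 gave edgeR adjusted p values of 0.0931, 0.33 and 0.309. Leaving out TPA 2 or TPA 3 gave 0.176 and 0.221. The call was thus lost in each of these fits, which called 0.618%, 0%, 0%, 0.109% and 0.00873% of all genes. The unadjusted edgeR p of JUNB in them was 0.00279 to 0.0055. The log2 fold change stayed between 1.21 and 1.57 over the 6 fits that leave out 1 library. The HOOK2 gene overlaps exons of JUNB on the opposite strand, and without a stated strand setting their reads cannot be told apart. HOOK2 had 1562, 1885 and 1852 counts in DMSO and 1314, 2296 and 2155 in TPA.

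**Figure D1:**
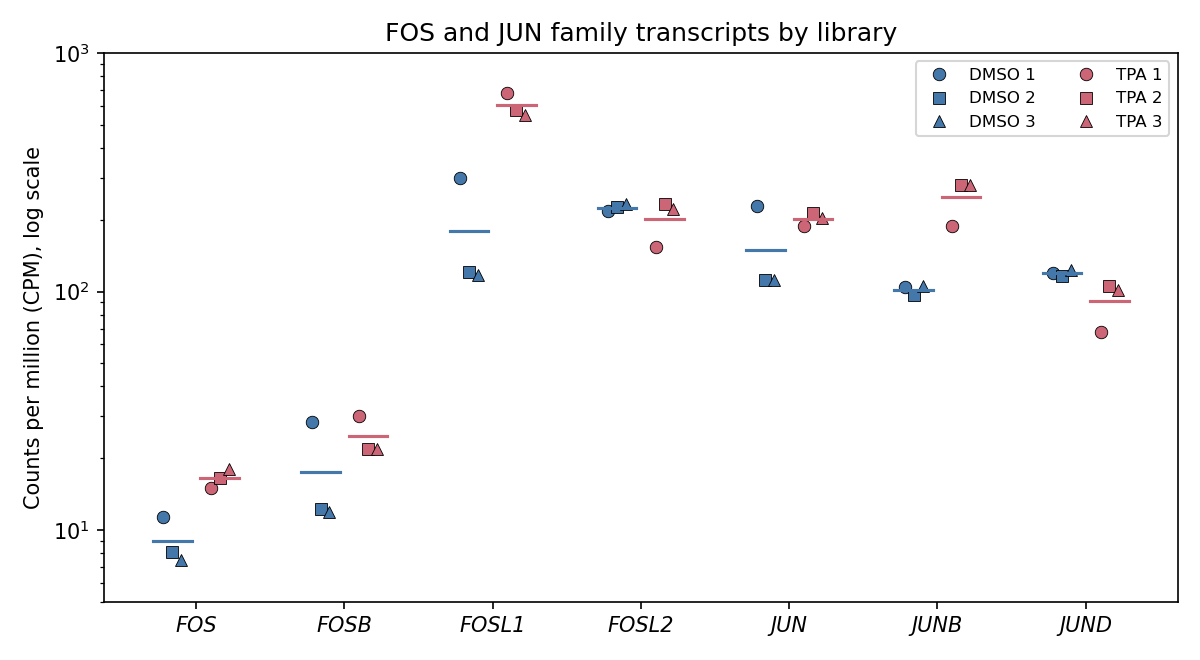
Level of each FOS and JUN family transcript in CPM (log axis) in the 3 DMSO (blue) and 3 TPA (red) libraries, with symbols for library numbers and bars at the group means. FOSL1, FOS and JUNB lie higher in all 3 TPA libraries than in any DMSO library, JUND lies lower, and FOSB, FOSL2 and JUN overlap.

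FOS and FOSB were the scarcest members in both groups. FOS, the founding member of its family, had 11.4, 8.09 and 7.46 CPM in DMSO and 15, 16.6 and 18 CPM in TPA. The groups did not overlap, but the log2 fold change of 0.88 ± 0.25 did not pass (edgeR adjusted p = 0.102). It passed with the block (0.90, edgeR adjusted p = 0.0466) and without TPA 1 (1.06, edgeR adjusted p = 0.00452). FOSB had 28.3, 12.3 and 11.9 CPM in DMSO and 30.2, 21.9 and 21.9 CPM in TPA. Both libraries numbered 1 were the highest of their group, and DMSO 1 lay above TPA 2 and TPA 3. The log2 fold change of FOSB was 0.50 ± 0.38 (edgeR adjusted p = 0.477). It was 1.03 without DMSO 1, 0.31 without DMSO 2 and 0.29 without DMSO 3. FOSB passed in none of these fits, and those without a DMSO library called 0.618%, 0% and 0% of all genes.

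JUN, the strongest activator of its family, overlapped between the groups. It had 228, 112 and 112 CPM in DMSO and 189, 213 and 203 CPM in TPA. DMSO 1 was the highest of all 6 libraries, so that JUN was lower in TPA in pair 1 (log2 -0.27) and higher in pairs 2 and 3 (0.93 and 0.86). Its log2 fold change was 0.42 ± 0.31 (edgeR adjusted p = 0.461), and 0.86 without DMSO 1 (adjusted p = 0.119).

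FOSL2 and JUND, which is known for steady expression in many cells, were the members with negative fold changes. FOSL2 had 217, 227 and 232 CPM in DMSO and 154, 232 and 221 CPM in TPA. Its log2 fold change was -0.16 ± 0.22 (edgeR adjusted p = 0.702). Only TPA 1 stood below the DMSO libraries, and without it the value was 0.12. JUND had 120, 116 and 123 CPM in DMSO and 68.0, 105 and 102 CPM in TPA. All TPA libraries lay below all DMSO libraries, TPA 1 the farthest, but the log2 fold change of -0.38 ± 0.23 did not pass (edgeR adjusted p = 0.373) and was -0.09 without TPA 1.

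All 7 genes passed the filter on low counts. In the main edgeR fit 1 of them was called higher and 0 lower, while 1.26% of all tested genes were called (0.861% higher and 0.394% lower). Below an unadjusted p of 0.05 there were 3 (FOSL1, JUNB and FOS, all higher), as were 22.1% of all genes. With the replicate block 3 were called higher (4.58% of all genes) and 0 lower (6.52%). DESeq2 called the same 3 higher, where it called 12% of all genes, and limma-voom called FOSL1 and JUNB (1.73%). With no filter on low counts FOSL1 and JUNB were called (1.56%), and with at least 1 CPM asked for in every library of a group JUNB was (1.81%). With upper-quartile factors (1.31%), or with library size only (1.58%) edgeR called 0 of the 7, of which 3 and 4 lay under an unadjusted p of 0.05. It also called 0 of the 7 without DMSO 2 or DMSO 3 (0% of all genes each), without TPA 2 (0.109%) and without TPA 3 (0.00873%), with 3 under an unadjusted p of 0.05 each time. Without both libraries numbered 1 it called 5 of the 7, all higher, where it called 65.5% of all genes. Every TPA library exceeded every DMSO library for 3 genes (14.3% of all genes), and the reverse held for 1 (15.2%). The median log2 fold change of the 7 was 0.50, against -0.11 over all genes. By pair, FOSL1 had log2 ratios of 1.18, 2.26 and 2.24 in pairs 1, 2 and 3, and JUNB 0.85, 1.53 and 1.41. FOS (0.40, 1.04 and 1.27) and FOSB (0.09, 0.84 and 0.88) were also higher in each pair, and JUND was lower in each (-0.82, -0.14 and -0.27). All 7 genes thus had a lower ratio in pair 1 than in pairs 2 and 3.

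Ratios of all genes followed transcript GC content in pairs 2 and 3, and the 7 genes are rich in GC. Over 11991 genes the Spearman correlation of the ratio with GC content was -0.11, 0.67 and 0.61 in pairs 1, 2 and 3. At the GC content of the 7 genes the fitted trend was -0.18 to 0.03 in pair 1, 0.54 to 0.64 in pair 2 and 0.44 to 0.49 in pair 3 on the log2 scale. With this trend removed and the block kept, FOSL1 (1.53, edgeR adjusted p = 0.00412), JUNB (0.93, edgeR adjusted p = 0.00495) and FOS (0.56, edgeR adjusted p = 0.0454) were higher. JUND (-0.70, edgeR adjusted p = 0.00962) and FOSL2 (-0.53, edgeR adjusted p = 0.0167) were lower in that fit, and FOSB (0.23) and JUN (0.13) did not pass. The fit called 9.24% of all genes higher and 10.7% lower, 19.9% in all. With the trend removed and no block, FOSL1 did not pass (1.43, edgeR adjusted p = 0.126), while JUNB (0.93, edgeR adjusted p = 0.0265) was higher, and JUND (-0.69, edgeR adjusted p = 0.0445) and FOSL2 (-0.53, edgeR adjusted p = 0.0347) were lower. That fit called 6.6% of all genes.

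**Figure D2:**
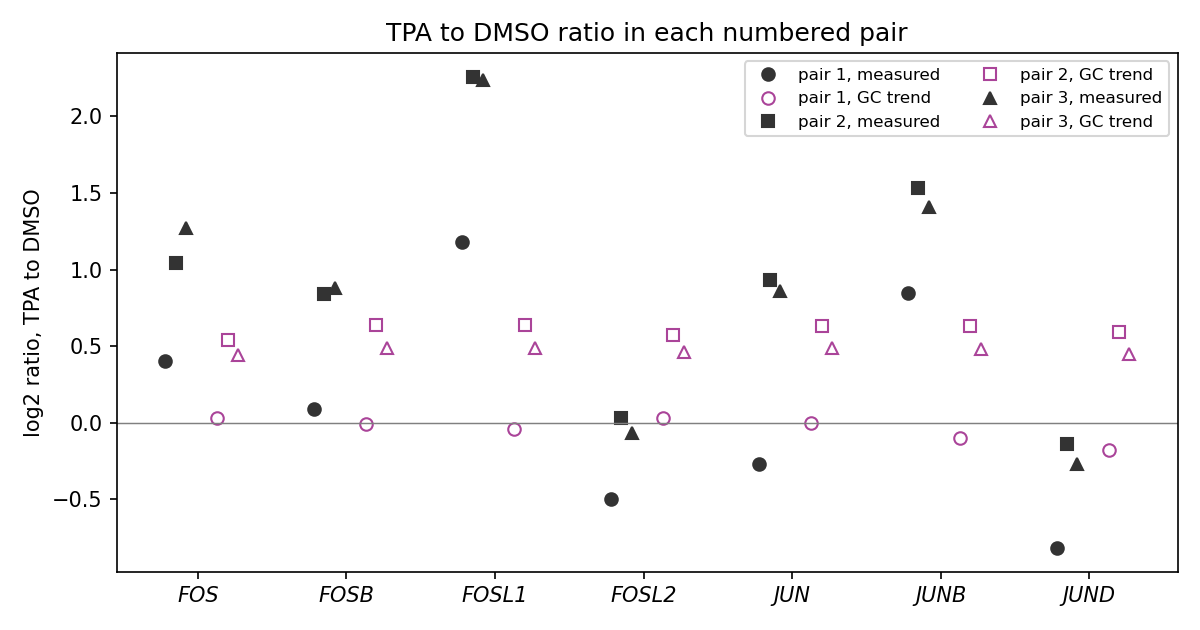
Log2 ratio of TPA to DMSO for each gene in the 3 numbered pairs (filled), beside the trend fitted over all genes at the gene's GC content (open). Pair 1 (circles) is the lowest pair for each gene, and in pairs 2 and 3 FOSL1 lies above 2 while the trend lies below 0.7.

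To compare subunits with each other, CPM was divided by the length of the longest transcript. In DMSO the order was FOSL1 (107 ± 62.5 CPM per kilobase), JUND (64.2 ± 1.94), JUNB (56.2 ± 2.53), JUN (42.5 ± 18.9), FOSL2 (33.6 ± 1.16), FOSB (4.63 ± 2.48) and FOS (4.16 ± 0.97). JUNB and JUN, JUN and FOSL2, and FOSB and FOS overlapped as neighbours. In TPA it was FOSL1 (361 ± 40.5), JUNB (137 ± 29.4), JUN (57.0 ± 3.33), JUND (49.2 ± 11.1), FOSL2 (30.1 ± 6.32), FOS (7.66 ± 0.71) and FOSB (6.53 ± 1.26). There JUN overlapped JUND, and FOS overlapped FOSB. JUNB stood below JUND in every DMSO library and above it in every TPA library, and FOSL1 stayed first. With the median in place of the longest transcript length, JUND exceeded FOSL1 in DMSO 3 (27.9% against 26.1% of the sum of the 7 genes), and FOSL1 stayed first in the other 5 libraries.

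The FOS family was dominated by FOSL1 per kilobase, more so in TPA. Per kilobase FOSL1 made up 79.9%, 64.0% and 63.0% of the family in DMSO and 91.5%, 87.8% and 87.5% in TPA. The DMSO libraries differed by more than 15 points among themselves, but all stayed below the TPA libraries (69.0 ± 9.51% against 88.9 ± 2.22%). FOSL2 made up 14.4%, 29.9% and 31.1% in DMSO and 5.14%, 8.76% and 8.73% in TPA. FOS and FOSB were a small part, with mean shares of 2.92% and 3.01% in DMSO and 1.91% and 1.60% in TPA. Within the family each of the 4 shares per kilobase had an exact two-sided permutation p of 0.1 (0.1 after adjustment), the smallest that 3 against 3 libraries can give. By CPM without length FOSL2 had the higher mean share of the family in DMSO (54.5% against 39.5% for FOSL1). FOSL1 led in DMSO 1 (53.9% against 39%) and on average in TPA (71.1% against 24%). On that scale the shares of FOS and of FOSB overlapped between the groups.

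In the JUN family JUND had the highest mean share per kilobase in DMSO, and JUNB had the highest in every TPA library. By CPM without length JUN had the highest mean share in DMSO (39.2% against 32.8% for JUND). JUN led there only in DMSO 1 (50.4% against 26.5%). JUND lay above JUN in DMSO 2 (35.7% against 34.5%) and in DMSO 3 (36.1% against 32.9%). In TPA 1 JUN (42.5%) also lay just above JUNB (42.2%) on that scale. The shares that follow are per kilobase. JUNB made up 30.8%, 36.3% and 37.3% of the family in DMSO and 53.4%, 56.9% and 57.9% in TPA. JUND made up 34.6%, 42.3% and 42.4% in DMSO and 18.9%, 20.9% and 20.5% in TPA. Neither gene's shares overlapped between the groups (exact two-sided permutation p = 0.1, adjusted p = 0.15). The share of JUN was 25.5 ± 7.91% in DMSO and 23.8 ± 3.36% in TPA, with overlap (exact permutation p = 1, adjusted p = 1).

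**Figure D3:**
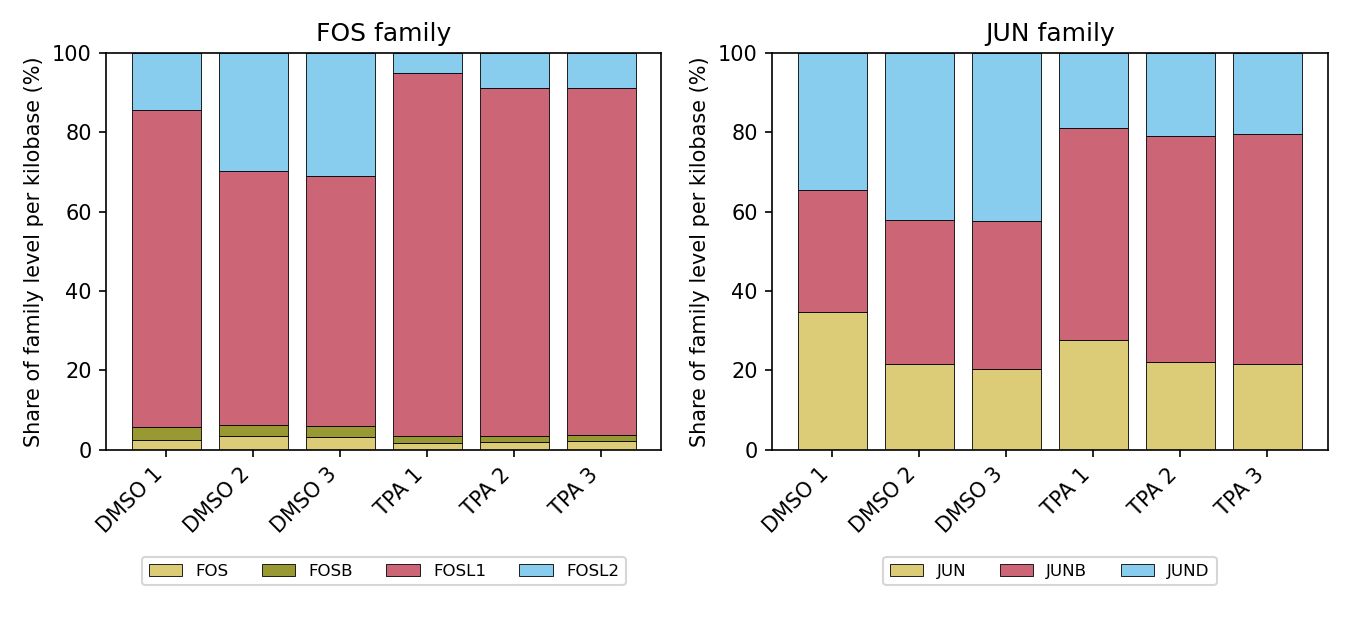
Share of each gene in the summed level per kilobase of the FOS family (left) and the JUN family (right) in each library, in percent. FOSL1 fills 63.0% to 79.9% of the FOS bars in DMSO and 87.5% to 91.5% in TPA, and JUNB fills more than 50% of the JUN bars only in TPA.

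By CPM without regard to length, which favours long transcripts, FOSL1 went from 21.2 ± 7.37% to 43.6 ± 6.74% of the sum of the 7 genes. FOSL2, whose transcript is the longest (6708 bases), went from 29 ± 6.48% to 14.5 ± 2.49%. JUND had 15.3 ± 2.98% and 6.57 ± 1.24%, JUN 18.2 ± 3.82% and 14.5 ± 0.207%, and JUNB 13.1 ± 2.41% and 17.9 ± 3.21%. FOSL2 was the first by this measure in DMSO 2 and DMSO 3, while in DMSO 1 FOSL1 (29.7%) and JUN (22.6%) lay above FOSL2 (21.5%). FOSL1 was the first in every TPA library. The shares of FOSL1, FOSL2, JUN and JUND did not overlap between the groups (exact permutation p = 0.1, adjusted p = 0.175), and those of JUNB, FOS and FOSB did.

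Summed per kilobase, the FOS family had 225, 113 and 111 in DMSO and 445, 394 and 378 CPM per kilobase in TPA, a ratio of means of 2.71. The JUN family had 186, 147 and 156 in DMSO and 193, 270 and 267 in TPA, a ratio of 1.49. Both sums were higher in every TPA library (exact permutation p = 0.1 each). For the JUN family this held only with the longest transcript length: with the median length (214 in TPA 1 and 223 in DMSO 1) and by CPM without length the groups overlapped (exact permutation p = 0.2 each). All 7 genes together gave 313 ± 84.8 in DMSO and 649 ± 13.7 CPM per kilobase in TPA, a ratio of 2.08.

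Ratios of counts within a library do not depend on how that library was scaled. JUNB to JUND gave the tightest separation: its log2 ratio was -0.20, -0.25 and -0.22 in DMSO and 1.47, 1.41 and 1.46 in TPA. The groups were 1.67 apart, with an SD of 0.03 within each, so the libraries numbered 1 did not stand out here. With the GC trend of each library taken out, an adjustment chosen after seeing the data, the difference was 1.63. FOSL1 to FOSL2 went from 0.47, -0.91 and -0.99 to 2.15, 1.32 and 1.32, a difference of 2.07 (2.06 without the GC trend). FOSL1 to JUN had 0.40, 0.11 and 0.06 in DMSO and 1.85, 1.44 and 1.44 in TPA, 1.38 apart.

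FOSL2 and JUND kept close to each other. Their log2 ratio was 0.86, 0.97 and 0.92 in DMSO and 1.18, 1.14 and 1.12 in TPA, a difference of 0.23 with no overlap (0.17 without the GC trend). FOSL2 to JUNB had mean log2 ratios of 1.14 ± 0.09 in DMSO and -0.30 ± 0.04 in TPA, a difference of -1.44. FOSL1 to JUNB overlapped (0.66 ± 0.75 and 1.29 ± 0.49). Of all 21 pairs of the 7 genes, the ratio was higher in every TPA library for 9, lower for 4 and overlapping for 8. These pairs share genes and are not independent, and the share over pairs of all genes was not computed. For the level of single genes, 14.3% of all tested genes were higher in every TPA library and 15.2% lower. The exact two-sided permutation p of each of the 13 pairs without overlap was 0.1, the smallest this test can give with 3 against 3 libraries, and 0.162 after adjustment over the 21.

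**Figure D4:**
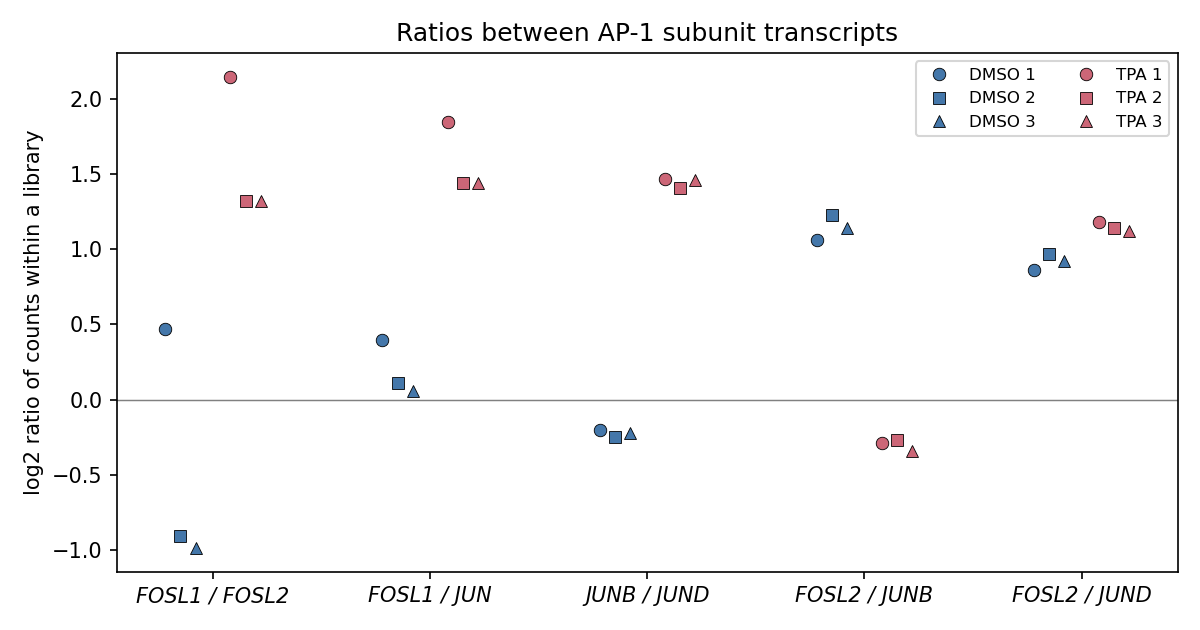
Log2 ratio of counts of 2 genes in the same library for 5 pairs, in DMSO (blue) and TPA (red). JUNB to JUND lies between -0.25 and -0.20 in DMSO and between 1.41 and 1.47 in TPA, while in both FOSL1 ratios the libraries numbered 1 (circles) lie above the others of their group.

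Genes whose profile over the 6 libraries was most like that of FOSL1 were PPIF, a mitochondrial cyclophilin gene (Pearson r = 0.9995 of log2 CPM), KDM6B, a histone demethylase gene (0.999), and SELENOS, a selenoprotein gene of the endoplasmic reticulum (0.9986). PPIF had 620, 206 and 208 CPM in DMSO and 1660, 1260 and 1260 CPM in TPA, with the same high DMSO 1 and TPA 1 as FOSL1. Closest to JUNB were IL27RA, a cytokine receptor gene (0.9996), SH2D3A, an adaptor gene (0.999), and SMPD2, a sphingomyelinase gene (0.999). IL27RA, chosen for this likeness, had 27.6 ± 1.9 CPM in DMSO against 96.6 ± 28.3 CPM in TPA. These were picked from 10334 genes, of which 398 exceeded r = 0.95 with FOSL1 and 1097 with JUNB. The 6 points share the differences between libraries described above.

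Beyond the families, the small MAF genes among the dimer partners rose. Of 13 listed partners of the same leucine zipper class, 10 were tested. In edgeR 3 of these rose and 0 fell (1.26% of all genes were called), and 5 lay under an unadjusted p of 0.05 (22.1%). DESeq2 called 5 higher and 0 lower (12%), and the block 4 and 0 (11.1%). Their median log2 fold change was 0.79. Small MAF proteins lack an activation domain and pair with FOS and other zipper proteins. MAFK rose from 52.9 ± 11.1 to 140 ± 7.03 CPM (log2 1.40 ± 0.23, edgeR adjusted p = 0.0411), MAFG by log2 1.35 and MAFF by log2 1.38. All 3 calls were lost with library size only and with the GC trend removed without the block. They were also lost without any 1 of DMSO 1, DMSO 2, DMSO 3, TPA 2 or TPA 3. The fits without 1 of these libraries called 0% to 0.618% of all genes. ATF3, a stress-induced partner of JUN proteins, had 155 ± 90.4 and 187 ± 11.9 CPM (0.28 ± 0.38, edgeR adjusted p = 0.697).

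Among kinases that act on AP-1 proteins or on factors at their promoters, MAP2K1 and MAP2K3 rose. They were 2 of 23 tested, and 0 fell in edgeR (1.26% of all genes called), where 9 lay under an unadjusted p of 0.05 (22.1%). DESeq2 called 2 higher and 2 lower (12%), limma-voom called 2 and 0 (1.73%), and the median log2 fold change was 0. MAP2K1, which encodes the ERK activator MEK1, rose from 98.0 ± 11.3 to 264 ± 52.7 CPM (log2 1.43 ± 0.23, edgeR adjusted p = 0.0411). MAP2K3, an activator of p38, rose by log2 1.38 ± 0.23 (edgeR adjusted p = 0.0473). MAP2K6, another p38 activator of the list, had means of 7.93 ± 4.61 CPM (DMSO) and 0.823 ± 0.498 CPM (TPA). Its log2 ratios were -3.38, -3.41 and -3.10 by pair, but it did not pass (-3.25 ± 0.71, edgeR adjusted p = 0.0672). With the block 2 were called higher and 3 lower (11.1% of all genes called). No kinase was called without any 1 of DMSO 1, DMSO 2, DMSO 3, TPA 2 or TPA 3. Those fits called 0% to 0.618% of all genes. Without TPA 1, where most genes were called, 11 kinases were called higher and 5 lower.

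Calls among the listed factors of the FOS and JUN promoters varied with the fit. Among the 14 tested, the main edgeR fit called 0 in either direction (1.26% of all genes), and 4 lay under an unadjusted p of 0.05 (22.1%). Without TPA 1 edgeR called 6 higher and 4 lower (52.5%). DESeq2 called 2 higher (12%) and limma-voom called 0 (1.73%). With the block there was 1 call in each direction (11.1%), and with the GC trend also removed 4 were higher and 2 lower (19.9%). The median log2 fold change was 0.22. MEF2D, which binds the JUN promoter, had 61.0 ± 9.62 and 114 ± 14.6 CPM (0.91 ± 0.22, edgeR adjusted p = 0.0786). ELK1, a partner of SRF on the FOS promoter, had 79.4 ± 0.883 and 140 ± 27.2 CPM (0.82 ± 0.22, edgeR adjusted p = 0.0923), and SRF itself 63.9 ± 8.0 and 66.0 ± 21.5 CPM. MRTFB, a coactivator of SRF, had 88.8 ± 14.6 and 40.7 ± 21.1 CPM (-1.12 ± 0.37, edgeR adjusted p = 0.139).

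Regulators of the activity or breakdown of the proteins gave no call in the main edgeR fit and 1 call, higher, with the block (11.1% of all genes called). Among the 10 tested, 3 lay under an unadjusted p of 0.05 (22.1%), DESeq2 called 1 higher and 1 lower (12%), limma-voom called 0, and the median was -0.20. Without TPA 1 edgeR called 2 higher and 6 lower (52.5%). The 3 with the lowest p were DET1, part of a ubiquitin ligase that targets JUN (-1.28 ± 0.38, edgeR adjusted p = 0.109), TRIB1, a scaffold of that ligase (1.17 ± 0.39, edgeR adjusted p = 0.143), and USP28, a deubiquitinase (-0.86 ± 0.30, edgeR adjusted p = 0.159).

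Textbook AP-1 target genes were mostly higher. The 25 genes were listed with earlier results of these data known, and 21 were tested. In edgeR 8 of these rose (0.861% of all genes) and 0 fell (0.394%). The median log2 fold change of the tested targets was 1.43 against -0.11 over all genes. Under an unadjusted p of 0.05 there were 18 (22.1% of all genes), DESeq2 called 18 higher and 0 lower (12%), and with the block 18 were higher (4.58%) and 0 lower (6.52%). PLAU, the urokinase gene, had 498, 282 and 303 CPM in DMSO and 1350, 1660 and 1640 CPM in TPA (log2 2.1 ± 0.27, edgeR adjusted p = 0.0279). Its groups stood far apart, with DMSO 1 the highest of the DMSO libraries and TPA 1 the lowest of the TPA libraries. MT2A, a metallothionein gene, rose from 241 ± 89.6 to 936 ± 47.3 CPM (1.96 ± 0.28, edgeR adjusted p = 0.0350). The protease system genes PLAUR, MMP1 and MMP9 and the cytokine genes IL6 and CSF2 also rose, MMP9 from 1, 1 and 0 counts to 67, 57 and 61 and CSF2 from 28, 7 and 1 counts to 3242, 1636 and 1990. CCND1, the cyclin D1 gene, had 299 ± 18.4 and 702 ± 205 CPM (1.23 ± 0.26, edgeR adjusted p = 0.0651), and MMP3 had -0.24 ± 0.75. IVL was at 0 in every library. No target call remained in edgeR without DMSO 2, without DMSO 3 or without TPA 3, where 0%, 0% and 0.00873% of all genes were called. Without TPA 2, 3 were made (0.109% of all genes).

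**Figure D5:**
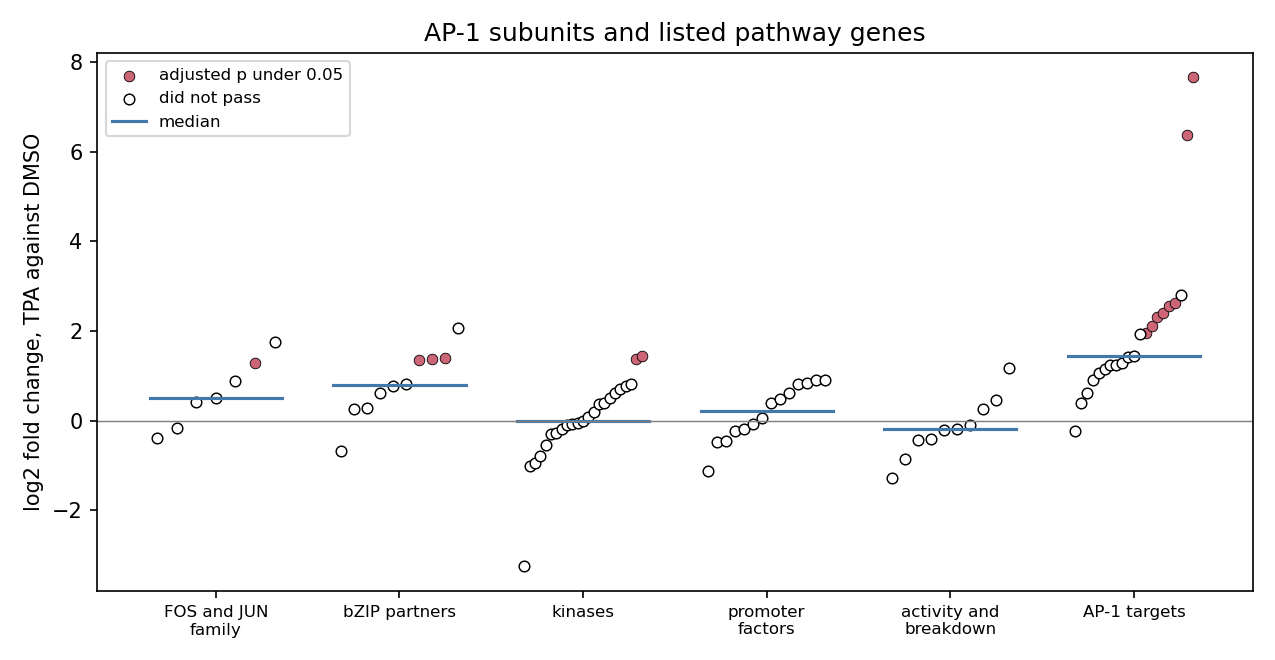
Fitted log2 fold change of TPA against DMSO for the tested genes of each list, sorted within a list, with red points for an adjusted p under 0.05 in edgeR and a blue bar at the median. The AP-1 targets have the highest median (1.43), and the 2 points above 6 are MMP9 and CSF2, whose DMSO libraries hold few counts, so that their fitted values depend on the prior count.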

How the data were processed

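Total RNA of 3 TPA and 3 DMSO libraries was sequenced. The authors deposited raw read counts per gene symbol, with no normalization. HISAT2 2.1.0 and HTSeq 0.12.4 are the tools, and hg38 and GRCh38 the builds, per the submitters' processing notes. Annotation release, strand setting and read layout were not given in the sources used here. The control columns were assigned by number to the samples labelled DMSO.

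Groups were compared in R 4.3.3 by the quasi-likelihood test of edgeR 4.0.16. The 21825 genes kept by filterByExpr were scaled by TMM, and p-values were adjusted by Benjamini-Hochberg at 0.05. A standard error is the log2 fold change over the root of its F statistic. A count of 0 allows up to 0.0915 to 0.109 CPM (3 counts), which covers counting error only. Shares and ratios were compared over libraries by exact permutation tests. Named genes were the 7 members, the called genes and the 3 lowest p of each list, and the 3 genes most like FOSL1 and JUNB with an average log2 CPM of at least 3. Other genes named were chosen after their values were seen, and 1 called target gene is not reported here by name.

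Same-numbered libraries deviated from their group means together (r = 0.546, 0.345 and 0.369), so the numbers were taken as pairs, from the data only. The crossed values, 0.374 for DMSO 3 and TPA 2 and 0.356 for DMSO 2 and TPA 3, were as high, so numbers 2 and 3 are not told apart, and p-values with the block may be too small.

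Lengths, GC content and coordinates came from GENCODE 29. GC values existed for 96.2% of tested genes. The GC correction took each library's deviation, fitted by a robust spline with 5 degrees of freedom, as an offset. Alternatives were other factors and filters, DESeq2 1.42.0, limma-voom (limma 3.58.1), the block, the GC correction and left-out libraries. Tested on simulated data with the spread of these libraries, the fits returned the fold changes put in. In the simulation edgeR called none of the smallest changes tried, and more of the calls of DESeq2 were false than its threshold allows. The simulated data held no shared effect of library number and no GC trend. They therefore cannot show whether the block or the GC correction removes such effects. Members and lists were chosen with earlier results of these data known.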

Additional observations from a re-analysis of the deposited data

How the results depend on the processing

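Over 17 alternative fits FOS, FOSB, FOSL1, JUN and JUNB kept a positive and JUND a negative log2 fold change. FOSL2 ran from -0.25 to 0.12 when 1 library was left out, turning positive without TPA 1 (0.12), and was positive without both libraries numbered 1 (0.13). JUNB passed in 10 of the 17, FOSL1 in 8 and FOS in 5. The share of all genes called ran from 0% to 65.5% over the 17 fits. It was 11.1% to 65.5% in the 5 where FOS passed. JUNB lost its call with upper-quartile factors (adjusted p = 0.0566) and with library size only (0.0544), where 0 members were called (3 and 4 at an unadjusted p under 0.05). Members called higher numbered 2 with no filter (1.56% of all genes called), 3 with DESeq2 (12%) and 2 with limma-voom (1.73%). They numbered 3 with the replicate block (11.1%) and 3, with 2 lower, with the block and GC correction (19.9%). With the GC correction alone 1 was called higher and 2 lower (6.6%). Without both libraries numbered 1, which leaves 2 close libraries against 2, 5 were called higher, where 65.5% of all genes were called. Leaving out 1 library gave 0 to 3, with the 3 coming without TPA 1, where 52.5% of all genes were called.

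Over all genes, calls higher and lower were 188 and 86 in the main analysis, 126 and 219 with library size only, which moved the median of all genes to -0.36, 429 and 202 with no filter, 1702 and 915 with DESeq2, 247 and 130 with limma-voom, 1000 and 1423 with the replicate block, 1940 and 2247 with the block and GC correction, 713 and 673 with the GC correction, and 7216 and 7475 without both libraries numbered 1. Without 1 library they ran from 0 to 5577 and from 0 to 6297. The counts of 0 (edgeR, without DMSO 2 or DMSO 3) stood beside 2612 and 2745 genes with unadjusted p below 0.05. The cause of these differences was not tested.

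By CPM without length the change in share of the 7 genes was 0.0734 points for FOS, -14.5 for FOSL2 and -8.75 for JUND, against -0.159, -6.65 and -13.9 per kilobase. With the GC trend taken out, chosen after seeing the data, the ratio of JUNB to JUND changed by 1.63 and that of FOSL2 to JUND by 0.17. All other shares in the sum of the 7 genes, family sums and ratios tried moved by less than 1 SD between libraries, the larger of the group SDs. This is a wide margin for JUNB. Its change in share per kilobase was 2.37 points, but -0.0126 without DMSO 1, 0.943 without TPA 3 and 4.83 without TPA 1.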
